A study of Mus musculus with 27 samples.

Results

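Acyl-CoA thioesterases split fatty acyl-CoA into a free fatty acid and coenzyme A, and PPARA is the nuclear receptor that fatty acids activate in the liver. The data concern 8 genes of the 19057 named on the array: the thioesterase genes Acot1, Acot2, Acot3 and Acot4, the receptor gene Ppara, and the PPARA targets Cpt1a, Pdk4 and Ehhadh. All of their probes were taken, 13 of 45281. The genes were chosen because Acot3 had already been seen to differ between genotypes in liver in these data, so their liver differences are given as a description, with no p-value for a single member, and counts of calls among them in liver stand only beside the share over all probes.

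The study measured total RNA from mouse liver, brain and bone marrow on Illumina BeadChips, with 3 arrays for each tissue and genotype and 27 arrays in all. The mice were homozygous (Mysm1tma1/tm1a), heterozygous (Mysm1+/tm1a) or wild type for Mysm1tm1a(KOMP)WTSI, an allele of the histone H2A deubiquitinase gene Mysm1, and all were on the C57BL/6 background. Alleles of the tm1a kind are built as knockout-first gene traps. The submitters describe the members of a group as separate animals, but the labels do not tie arrays of different tissues to one animal. The labels state no age, sex or feeding state.

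PPARA binds DNA together with a retinoid X receptor and, in the fasted liver, raises the enzymes that burn fatty acids in mitochondria and peroxisomes. In the mouse, ACOT1 is cytosolic, ACOT2 mitochondrial, and ACOT3 and ACOT4 peroxisomal. CPT1A, on the outer mitochondrial membrane, controls the entry of long-chain fatty acids into mitochondria, EHHADH is the bifunctional enzyme of peroxisomal beta-oxidation, and PDK4 phosphorylates and so inhibits pyruvate dehydrogenase, sparing glucose when fat is burned.

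The 4 thioesterase genes lie side by side on mouse chromosome 12 in the order Acot2, Acot1, Acot4, Acot3, followed by Acot5 and Acot6. The 250 bases before the annotated start are printed for Acot3 and Acot4, neighbours whose liver levels moved together over the arrays, and for Acot1 and Ehhadh, which lie on different chromosomes and also moved together. They are RefSeq sequences on GRCm38.p6, read 5′ to 3′ on the strand of the gene, and the capitals mark the half-site searched for.
Acot3, chr12:84051894-84052143, plus strand: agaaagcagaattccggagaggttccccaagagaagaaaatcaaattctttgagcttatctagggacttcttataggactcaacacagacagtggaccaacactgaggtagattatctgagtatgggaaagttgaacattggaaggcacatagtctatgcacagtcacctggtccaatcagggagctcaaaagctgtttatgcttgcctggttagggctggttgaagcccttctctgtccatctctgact
Acot4, chr12:84038129-84038378, plus strand: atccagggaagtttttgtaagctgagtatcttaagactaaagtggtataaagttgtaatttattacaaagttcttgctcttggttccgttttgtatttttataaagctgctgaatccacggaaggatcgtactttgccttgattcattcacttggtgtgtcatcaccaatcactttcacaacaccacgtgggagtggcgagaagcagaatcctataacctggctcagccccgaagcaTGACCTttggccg
Acot1, chr12:84009252-84009501, plus strand: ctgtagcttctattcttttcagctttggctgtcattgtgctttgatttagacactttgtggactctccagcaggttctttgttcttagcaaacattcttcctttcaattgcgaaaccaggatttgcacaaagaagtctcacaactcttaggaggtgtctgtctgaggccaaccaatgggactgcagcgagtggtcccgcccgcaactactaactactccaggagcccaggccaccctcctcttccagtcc
Ehhadh, chr16:21787835-21788084, minus strand: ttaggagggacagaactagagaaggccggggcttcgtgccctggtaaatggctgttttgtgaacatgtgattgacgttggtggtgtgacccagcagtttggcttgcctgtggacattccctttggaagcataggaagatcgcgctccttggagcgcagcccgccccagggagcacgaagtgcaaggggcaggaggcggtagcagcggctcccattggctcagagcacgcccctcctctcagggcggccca

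On both strands of the 250-base windows of all 8 genes, the nuclear receptor half-site AGGTCA was found in Acot4, as TGACCT at positions -13 to -8 from the start, and in Cpt1a, at positions -94 to -89. It occurred in 14.0% of the 32851 windows of that length in the table. The direct repeat of the half-site spaced by 1 base, AGGTCANAGGTCA, the form that PPARA and its partner bind, occurred in 0.0335% of windows and in none of the 8, and TTCNNNGAA, the form of a STAT5 site, in 7.02% of windows and in none of the 8. Any direct repeat would also count in the half-site search.

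Acot3 had the widest genotype difference among the member probes in liver. On a log2 scale of normalised intensity, Acot3 (ILMN_2644827) read 7.15, 8.30 and 8.08 in homozygous livers, 10, 9.54 and 10.54 in heterozygous livers, and 11.46, 9.78 and 9.56 in wild-type livers. All 3 homozygous arrays lay below the 6 others, while heterozygous and wild-type arrays overlapped. The mean difference was -2.42 ± 0.48 (SE) for homozygous minus wild type, or 5.37-fold lower in homozygous livers, -2.18 for homozygous minus heterozygous and -0.24 for heterozygous minus wild type. Without wild-type replicate 1, the highest of the 9, the first difference was -1.83, and without wild-type replicate 3, it was -2.78.

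Acot4 (ILMN_2622613) ran the same way with a smaller range. It read 7.82, 8.10 and 8.13 in homozygous livers, 8.72, 8.46 and 8.99 in heterozygous livers, and 9.45, 8.52 and 8.59 in wild-type livers. The homozygous arrays again lay below all others, and the homozygous minus wild-type difference was -0.84 ± 0.24. Leaving out wild-type replicate 1 brought it to -0.54.

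Pdk4 (ILMN_1259322) was also lower on every homozygous array. Its log2 levels were 7.09, 6.63 and 7.26 in homozygous livers, 7.97, 7.42 and 7.50 in heterozygous livers, and 7.79, 7.72 and 7.97 in wild-type livers, a homozygous minus wild-type difference of -0.83 ± 0.19 that stayed between -0.96 and -0.64 when single arrays were left out. With no background correction it was -0.57.

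The probes of Acot2 disagreed. ILMN_2745889 read 5.43, 5.38 and 4.99 in homozygous livers, 5.95, 5.80 and 5.98 in heterozygous livers, and 6.18, 5.63 and 5.99 in wild-type livers, a homozygous minus wild-type difference of -0.67 ± 0.17. ILMN_2840492 went the other way, at 5.52, 5.18 and 5.16 in homozygous livers, 5.12, 5.53 and 4.94 in heterozygous livers, and 4.6, 4.94 and 5.15 in wild-type livers, a difference of 0.39 ± 0.19. That second probe was detected above negative controls on 3 homozygous, 2 heterozygous and 1 wild-type array, close to the lower end of measurement. Without background correction the differences of the 2 probes were -0.26 and 0.14. The thioesterases of the cluster are close in sequence, the probe sequences were not analysed here, and it was not tested how far a probe also reports a neighbour.

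Acot1 showed a wide spread within heterozygous and within wild-type livers, but not within homozygous livers, in place of a difference in mean level between genotypes. Its brighter probe (ILMN_3139875) read 11.17, 11.24 and 10.87 in homozygous livers, 11.68, 10.51 and 12.25 in heterozygous livers, and 12.23, 10.44 and 11.13 in wild-type livers, with a homozygous minus wild-type difference of -0.17 ± 0.47. Leaving out wild-type replicate 1 turned its sign, to 0.31, and that of the dimmer probe, to 0.25. The range over 3 arrays was 0.37 in homozygous, 1.75 in heterozygous and 1.78 in wild-type livers, where 95% of all 16439 probes tested in liver had ranges up to 0.76, 0.85 and 0.82. The other Acot1 probe above background (ILMN_3062267) had ranges of 0.09, 1.84 and 1.72 in the same order of genotypes.

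Ehhadh (ILMN_2706120) followed Acot1 more closely than Acot3 (Pearson correlation 0.98 against 0.65 over the 9 liver arrays). It read 7.95, 8.11 and 7.93 in homozygous livers, 8.41, 7.75 and 8.71 in heterozygous livers, and 8.68, 7.80 and 8.11 in wild-type livers, so that the genotypes overlapped and differed by -0.20 ± 0.26 for homozygous minus wild type, or 0.04 without wild-type replicate 1. Its ranges were 0.19, 0.97 and 0.88 in homozygous, heterozygous and wild-type livers.

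The receptor gene itself did not share the genotype difference of Acot3. Ppara (ILMN_2927172) read 6.13, 6.57 and 5.95 in homozygous livers, 6.69, 6.11 and 6.55 in heterozygous livers, and 6.03, 6.37 and 5.81 in wild-type livers, a homozygous minus wild-type difference of 0.15 ± 0.21, or -0.03 without homozygous replicate 2. The detected Cpt1a probe (ILMN_1213487) stayed near background, at 5.08, 4.93 and 4.81 in homozygous livers, 4.92, 5.55 and 5.43 in heterozygous livers, and 4.99, 5.32 and 5.01 in wild-type livers. It passed detection on 1 of the 3 homozygous arrays, and its difference was -0.17 ± 0.17. One further probe each of Acot1 (ILMN_2768647), Acot2 (ILMN_1243165) and Cpt1a (ILMN_2591776) was above background on none of the 27 arrays.

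**Figure D1:**
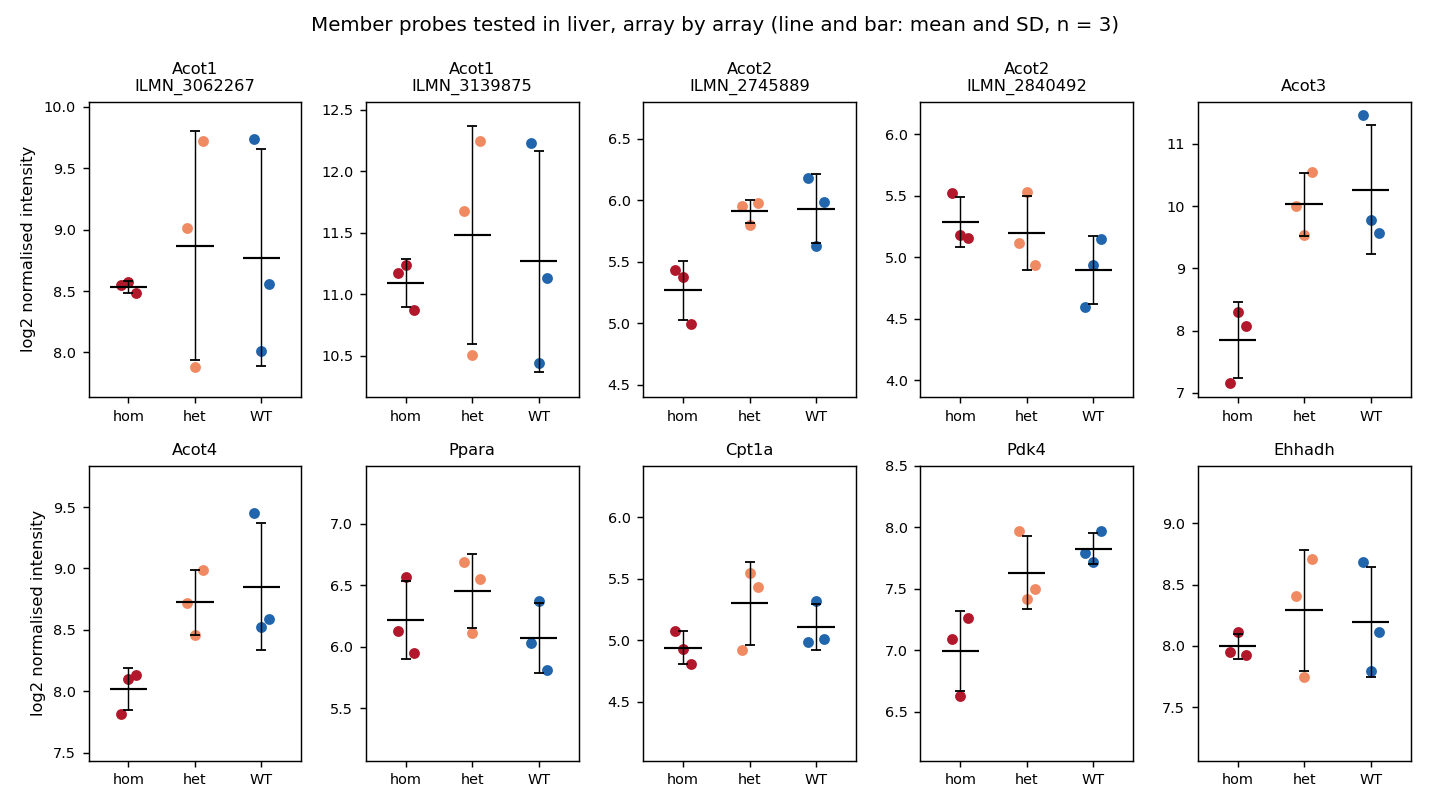
Log2 normalised intensity of the 10 member probes tested in liver, one panel a probe, with homozygous (hom), heterozygous (het) and wild-type (WT) arrays as points from replicate 1 to 3 and the mean and SD (n = 3) in black. The homozygous arrays of Acot3, Acot4, Pdk4 and Acot2 ILMN_2745889 lie below all others, and Acot1 and Ehhadh spread within the heterozygous and wild-type groups.

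Counted over the 10 probes tested, 4 had homozygous arrays all below wild type (11.5% of all probes tested did) and 1 had them all above (12%). The limma test with Benjamini-Hochberg adjustment over all probes called 1 of the 10 between homozygous and wild-type livers, where 1.26% of all probes were called. Between homozygous and heterozygous livers 4 of the 10 had homozygous arrays all below (9.64% of all probes did), and 0 were called (0.505%), with 4 at an unadjusted p under 0.05 (13.1% of all probes). Between heterozygous and wild-type livers 0 of the 10 were called (0%), 0 had groups that did not overlap (11.5%) and 0 had an unadjusted p under 0.05 (6.93%). The members were picked on genotype differences in liver, and these contrasts share their arrays, so nothing is read from any of these counts. The median difference over the 10 probes was -0.22 for homozygous minus wild type, 0.10 for heterozygous minus wild type and -0.37 for homozygous minus heterozygous, beside medians of 0 over all probes.

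The heterozygous and wild-type livers shared a BeadChip and the homozygous livers were on another, so BeadChip and genotype cannot be told apart in the homozygous differences. Fewer cells of a type and less RNA per cell cannot be told apart either in these tissue samples. The bead standard error of Acot3 in liver was 2.20% to 4.10% of its signal. For the dim Cpt1a probe the bead standard error was 4.52 to 4.74 in units of raw intensity in homozygous livers. Raw signals there ran from 104.5 to 114.2, so bead error is not small beside that spread.

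Over the 9 liver arrays 4 of the members formed the closest pairs, but the pairs were not separate. By Pearson correlation Acot2 (ILMN_2745889) had 0.84 with Acot3 and 0.83 with Acot4, and Ehhadh had 0.65 with Acot3 and 0.75 with Acot4. Acot3 and Acot4 had a Pearson correlation of 0.98 over the 9 arrays (Spearman 0.97), 0.99 over the 6 heterozygous and wild-type arrays alone, and 0.97 over the 9 once the genotype means were removed, so their joint movement was not limited to the homozygous arrays. Acot4 moved by 0.36 log2 units for each unit of Acot3. Without the 2 arrays farthest from the Acot3 median the correlation was 0.97. Over the 6 heterozygous and wild-type arrays it was 0.77 when the 2 farthest were left out. Wild-type replicate 1 and heterozygous replicate 3 were the highest arrays for both genes.

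Acot1 and Ehhadh had a correlation of 0.98 (Spearman 0.97), 1.00 over the 6 heterozygous and wild-type arrays and 0.99 with genotype means removed, with 0.54 log2 units of Ehhadh for each unit of Acot1. Acot3 and Ppara had 0.13 over the 9 arrays and 0.04 over the 6. Without the 2 arrays farthest from the Acot3 median these were 0.33 and 0.93, so the low values rested on few arrays. Pdk4 and Acot3 had 0.69 over the 9, but 0.00 over the 6 and -0.20 with genotype means removed, so that relation rested on the difference between genotypes. These values describe 9 arrays that share a normalisation, and carry no test.

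Among 9589 named genes in liver, the 3 most like Acot3 by Pearson correlation over the 9 arrays were Cyp2a4 (0.978), Acot4 (0.977) and Irgm2 (0.967). Those most like Acot4 were Acot3, Xpot (0.95) and Cyp4a14 (0.947), a microsomal fatty acid hydroxylase. Those most like Acot1 were the peptide deformylase gene Pdf (0.986), Ehhadh (0.982) and Ints13 (0.938), and the last of these and Pdf also stood nearest to Ehhadh after Acot1. For Pdk4 they were Pld1 (0.971), Dpp4 (0.966) and Nfkbid (0.964), for Acot2 Nfyc (0.936), Ppm1l (0.935) and Agpat2 (0.924), for Ppara Mkx (0.938), Tbccd1 (0.921) and Wsb2 (0.879), and for Cpt1a Gfm2 (0.95), ccdc198 (0.928) and Gm5820 (0.928). Some of these rested on few arrays: over the 6 heterozygous and wild-type arrays without the 2 farthest, the correlation was 0.35 for Acot3 with Cyp2a4, 0.07 for Pdk4 with Nfkbid, 0.20 for Acot2 with Ppm1l and -0.23 for Acot2 with Agpat2. All neighbours were picked as the highest of 9589 genes over 9 arrays, and their correlations carry no test. Acot2 is represented here by ILMN_2745889, whose partner probe ran the other way, and Cpt1a by a probe near background.

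**Figure D2:**
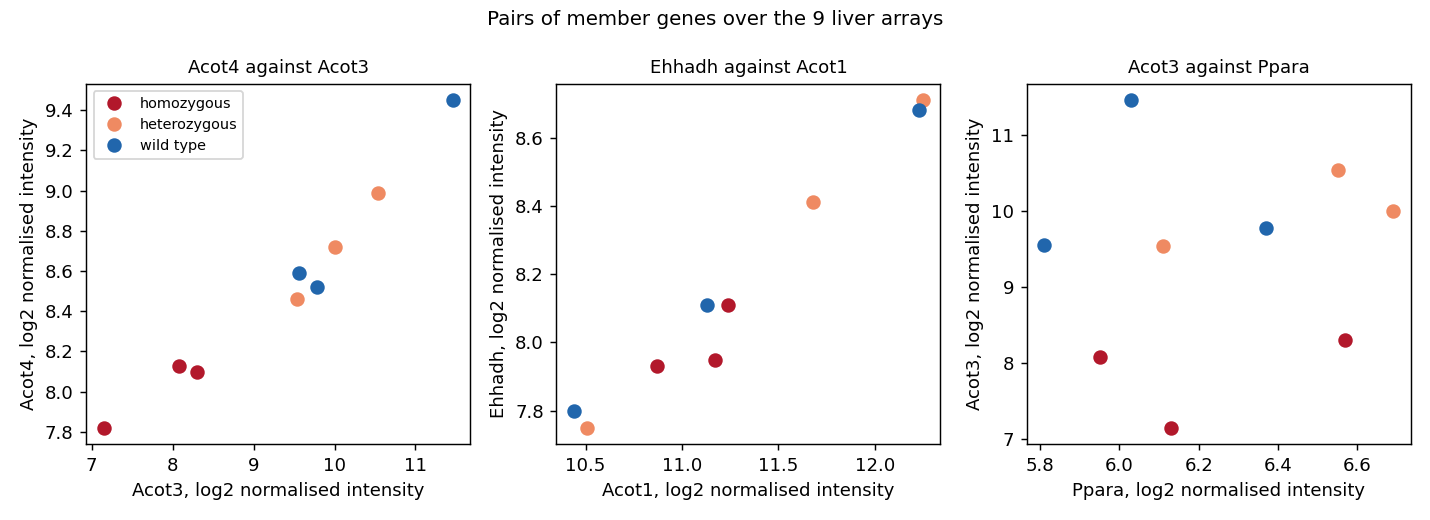
Log2 normalised intensity of Acot4 against Acot3 (left), Ehhadh against Acot1 (middle) and Acot3 against Ppara (right), each point one of the 9 liver arrays, coloured by genotype. The first pair lie along a line with homozygous arrays at its lower end and the second along a line with homozygous arrays in its middle. The third show no line over all 9 arrays (correlation 0.13).

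Of the wider fatty acid pathway, 1 of 94 genes tested passed the adjusted threshold between homozygous and wild-type livers, a share near the 1.26% of all probes, so the count is no result about the pathway. The gene was Angptl4, a PPARA target that encodes an inhibitor of lipoprotein lipase, and it ran opposite to Acot3. Angptl4 averaged 10.77 ± 0.22 in homozygous, 10.18 ± 0.36 in heterozygous and 9.48 ± 0.26 in wild-type livers (SD, n = 3 each), 2.45-fold higher in homozygous than in wild type (1.29 ± 0.20 SE, limma adjusted p = 0.0164). The call was lost without wild-type replicate 1 (1.16, adjusted p = 0.0579), without wild-type replicate 2 (1.33, adjusted p = 0.0618) and without homozygous replicate 1 (1.19, adjusted p = 0.0759).

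The other 18 of the 19 PPARA targets tested did not pass, with a median over the 19 of -0.16. Cyp4a14, which stood near Acot4 above, averaged 13.02 ± 0.23 in homozygous, 13.57 ± 0.41 in heterozygous and 13.74 ± 0.69 in wild-type livers, a homozygous minus wild-type difference of -0.72 ± 0.32 (limma adjusted p = 0.288). Fgf21, the fasting hormone gene, read alongside Angptl4 after its value was seen, had a difference of 1.29 ± 0.50 with an SD of 1.08 among homozygous livers (limma adjusted p = 0.232).

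Among the other acyl-CoA thioesterases 0 of 10 passed, with a median of -0.03. Acot6, a further gene of the chromosome 12 cluster, read 5.12, 5.36 and 5.54 in homozygous livers, 5.96, 5.39 and 5.76 in heterozygous livers, and 6.33, 6.16 and 5.95 in wild-type livers, where homozygous and wild-type arrays did not overlap. Its homozygous minus wild-type difference was -0.81 ± 0.17 (limma adjusted p = 0.0589). It passed when detection was required on all 9 arrays (adjusted p = 0.0465) and with array weights (-0.84, adjusted p = 0.0316). With any 1 homozygous or wild-type array left out it did not pass, at differences from -0.91 to -0.70 and limma adjusted p from 0.07 to 0.21. Them4 averaged 5.46 ± 0.24 in homozygous and 4.63 ± 0.03 in wild-type livers (limma adjusted p = 0.142), and was above background on none of the wild-type arrays.

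No gene of beta-oxidation passed. Of 15 peroxisomal genes 0 passed, with a median of 0.12 and 0.45 ± 0.14 for Decr2 (limma adjusted p = 0.142), a peroxisomal dienoyl-CoA reductase gene, and -0.62 ± 0.25 for the peroxisomal transporter gene Abcd2 (adjusted p = 0.257). Of 18 mitochondrial genes 0 passed, with a median of 0 and -0.23 ± 0.14 for the medium-chain dehydrogenase gene Acadm (limma adjusted p = 0.460) and -0.53 ± 0.27 for the carnitine acetyltransferase gene Crat (adjusted p = 0.349). Of 3 ketone body enzymes 0 passed, with 0.45 ± 0.22 for Acat1 (limma adjusted p = 0.326) and 0.18 ± 0.14 for Bdh1 (adjusted p = 0.575).

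Among receptors and cofactors 0 of 12 passed. The acetyltransferase genes Ep300 and Crebbp differed by -0.47 ± 0.11 (limma adjusted p = 0.0798) and -0.52 ± 0.13 (adjusted p = 0.0833), and Crebbp was above background on 1 of 3 homozygous arrays. Among pyruvate dehydrogenase genes and their regulators, the group of Pdk4, 0 of 9 passed, with -0.31 ± 0.13 for Pdk1 (limma adjusted p = 0.266) and 0.20 ± 0.12 for the phosphatase gene Pdp2 (adjusted p = 0.440). Of 8 fasting-response genes 0 passed, with -0.61 ± 0.17 for the glycogen targeting gene Ppp1r3c (limma adjusted p = 0.123) and 0.39 ± 0.38 for the gluconeogenic gene Pck1 (adjusted p = 0.645). Between heterozygous and wild-type livers, as between homozygous and heterozygous livers, none of these 8 lists held a called gene.

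**Figure D3:**
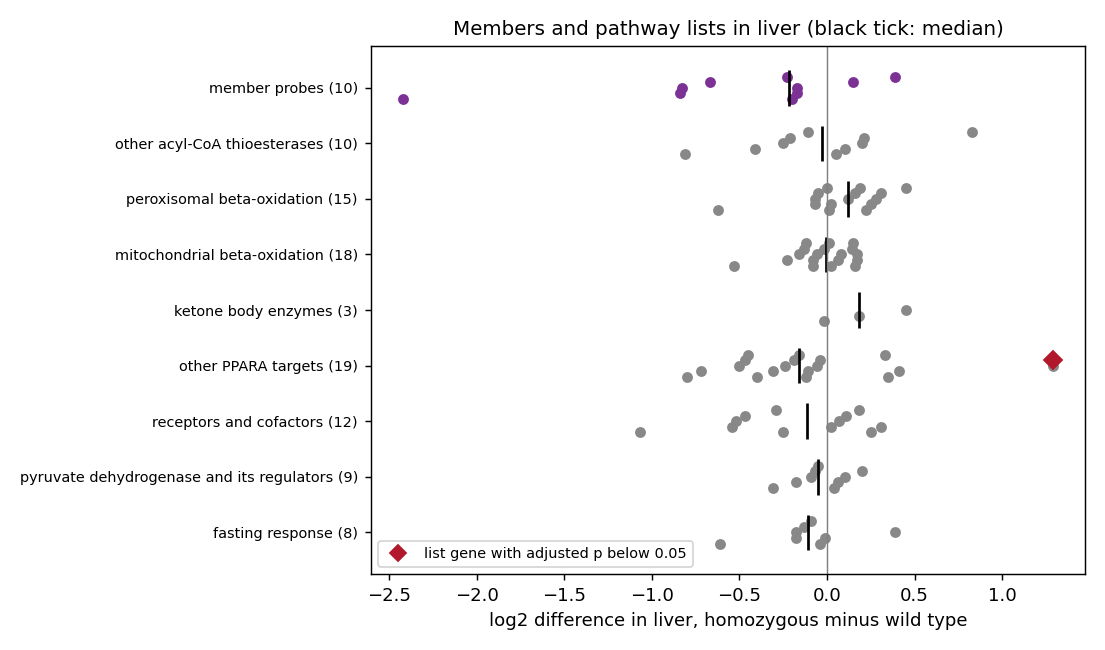
Log2 difference in liver, homozygous minus wild type, for the 10 member probes (purple) and for the genes of 8 pathway lists (grey, number tested in brackets), with the median as a black tick. Angptl4 (red diamond, 1.29) is the one list gene past the adjusted threshold, and Acot3 (-2.42) lies farthest to the left.

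Liver genes known to differ between male and female mice moved with Acot3. Of 12 male-biased genes tested, 11 rose in homozygous against wild-type livers (0.633% of all probes did), and of 10 female-biased genes 9 fell (0.627%). Both lists hold genes already known from these data, so the counts are a description and no test against those shares. The summed signal of the female-biased list was 3104 to 9600 in homozygous, 32440 to 51430 in heterozygous and 33970 to 47090 in wild-type livers, and that of the male-biased list 31590 to 43330, 8782 to 11040 and 11550 to 13010. Cyp2a4, the gene most like Acot3, is on the female-biased list. The part of this shift in the Acot3 difference was not tested. The labels give no sex, and no sex-linked transcript is given here. Genotype and sex of the animals were therefore not told apart in any of the homozygous liver differences.

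Markers of other cells were set beside the same difference. The summed hepatocyte markers ran from 143800 to 166300 in homozygous, 143100 to 154600 in heterozygous and 151000 to 156300 in wild-type livers, with a median difference of -0.03 over 9 markers. Apoa1 and Ttr were bright in every liver, but the Alb probe stayed at 4.53 to 4.88, near background on all 9 liver arrays. Stellate cell markers summed to 3904 to 4506 in homozygous, 3720 to 4137 in heterozygous and 4728 to 5004 in wild-type livers, and 0 of 8 were called. Of the 8 stellate markers, 7 had a negative homozygous minus wild-type difference, with a median of -0.29. Endothelial markers summed to 1950 to 2236 in homozygous, 2121 to 2468 in heterozygous and 2308 to 2508 in wild-type livers. None of the 9 was called by limma, and 8 of the 9 had a negative homozygous minus wild-type difference, with a median of -0.20. Marrow myeloid and erythroid markers summed to 731.2 to 934.7 in homozygous, 315.6 to 517.9 in heterozygous and 232.1 to 384.1 in wild-type livers, and 1 of 5, the haem synthesis gene Alas2, was called. Their part in the member differences was not tested.

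Mysm1 itself (ILMN_3119954) read 5.20, 4.49 and 4.72 in homozygous, 6.48, 6.64 and 6.54 in heterozygous and 7.57, 7.59 and 7.29 in wild-type livers, in the order of its labels, and brain was ordered likewise. In bone marrow it read 6.48, 4.88 and 6.95 on the arrays labelled homozygous, 6.35, 6.08 and 6.35 on those labelled heterozygous and 6.18, 6.29 and 6.40 on those labelled wild type, so that homozygous replicates 1 and 3 went against their label, and the heterozygous arrays were not below wild type as they were in liver and brain. Homozygous replicate 2, the one low in Mysm1, carried hepatocyte transcripts, with Apoa1 at 10.19 against 4.38 to 4.93 on the other 8 marrow arrays. Bone marrow values are therefore given by label, and with and without that array. Mean raw signal ran from 281.9 to 361 in liver, 285.3 to 372.8 in brain and 92.14 to 228.4 in bone marrow, where precision was lowest.

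In brain, which the choice of members did not use, 7 member probes of 5 genes passed the detection filter and 0 of the 7 were called in homozygous against wild type (0.00959% of all probes were), in heterozygous against wild type (0%) or in homozygous against heterozygous (0.00959%), by limma with adjustment over all 20852 probes. At an unadjusted p under 0.05 there were 1 (5.1% of all probes), 0 (5.91%) and 1 (6.14%). Wild-type brains were on a different BeadChip from heterozygous and homozygous brains. BeadChip and genotype therefore cannot be told apart in the brain differences from wild type. Acot3 read 5.32, 5.58 and 5.38 in homozygous, 5.20, 5.26 and 5.56 in heterozygous and 5.68, 5.33 and 5.82 in wild-type brains, a homozygous minus wild-type difference of -0.18 ± 0.15 (limma adjusted p = 0.984). Pdk4 differed by -0.13 ± 0.09 (limma adjusted p = 0.984) and the brighter Acot1 probe by -0.03 ± 0.13 (adjusted p = 0.994).

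Acot4 ran toward higher values in homozygous brains, at 5.04, 5.19 and 4.73 against 4.79, 4.41 and 4.63 in wild-type brains. It was above background on 2 homozygous and on none of the wild-type arrays, so the fold between the means has a lower bound only, 1.08-fold. That bound takes no account of the spread between arrays. The homozygous and wild-type arrays overlapped, and the difference of 0.37 ± 0.15 did not pass (limma adjusted p = 0.962). A bound of this kind sets the mean of the bright group against the lowest signal that counts as detected. Ppara, Cpt1a and Ehhadh did not reach the filter in brain.

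In bone marrow 6 member probes of 5 genes were tested, and 0 were called in the arrays labelled homozygous against wild type (1.13% of all probes were), in heterozygous against wild type (0%) or in homozygous against heterozygous (0.716%). The counts at an unadjusted p under 0.05 were 0 (26.6% of all probes), 0 (10%) and 1 (14.8%). Marrow arrays labelled homozygous were on a different BeadChip from the other marrow arrays. BeadChip and label therefore cannot be told apart in the marrow differences of the homozygous group. The brighter Acot1 probe read 5.63, 6.30 and 5.21 on arrays labelled homozygous, 4.63, 4.50 and 5.21 on heterozygous and 5.33, 5.26 and 4.59 on wild-type arrays. Its homozygous minus wild-type difference was 0.66 ± 0.33 (limma adjusted p = 0.222), and 0.36 without homozygous replicate 2 (adjusted p = 0.361). With median scaling the difference was -0.06.

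Pdk4 read 5.78, 4.79 and 4.72 on marrow arrays labelled homozygous, 5.55, 5.12 and 4.58 on heterozygous and 4.63, 4.34 and 4.87 on wild-type arrays. The groups overlapped, with 0.48 ± 0.33 for homozygous minus wild type (limma adjusted p = 0.363) and 0.63 without replicate 2 (adjusted p = 0.191). Acot3 differed by 0.29 ± 0.28 (limma adjusted p = 0.510) and by 0.56 without replicate 2 (adjusted p = 0.0849), Acot2 ILMN_2840492 by 0.47 ± 0.30 and 0.66 (adjusted p = 0.330 and 0.119), the dimmer Acot1 probe by 0.28 ± 0.36 and 0.37 (adjusted p = 0.630 and 0.485), and Cpt1a by -0.12 ± 0.22 and -0.03 (adjusted p = 0.728 and 0.915). Cpt1a was above background on 0 of the 3 marrow arrays labelled homozygous, 1 heterozygous and 2 wild-type arrays. Acot3 was above background on 1 array of each group, so both differences lie close to the lower end of measurement. Over the 6 probes the median was 0.38 where all probes tested had a median of -0.16. Markers of adipocytes, cells that also express PPAR targets, summed to 1773 to 2591 on marrow arrays labelled homozygous, 1125 to 1472 on heterozygous and 1114 to 1248 on wild-type arrays, and those of endothelial cells to 1607 to 1742, 878.9 to 941.7 and 814 to 1109 on the same groups in the same order. Hepatocyte markers summed to 843.7, 20170 and 1073 on the arrays labelled homozygous, 209.9 to 531.4 on heterozygous and 84.32 to 257.6 on wild-type arrays. Of 7 endothelial markers tested, 4 had a positive and 3 a negative homozygous minus wild-type difference, and 0 were called. Neuron sums (115.8 to 617.4 against 69.96 to 86.11) and cholangiocyte sums (67.32 to 101.5 against 23.02 to 34.83) also lay above wild type, as did marrow myeloid and erythroid sums. Stellate, macrophage, glia and skeletal muscle sums overlapped wild type. The part of any of these cells in the marrow values was not tested. With array weights, which discount arrays that stand apart, 4 of the 6 were called, as were 9380 of all 15087 probes, so nothing is read from that count.

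**Figure D4:**
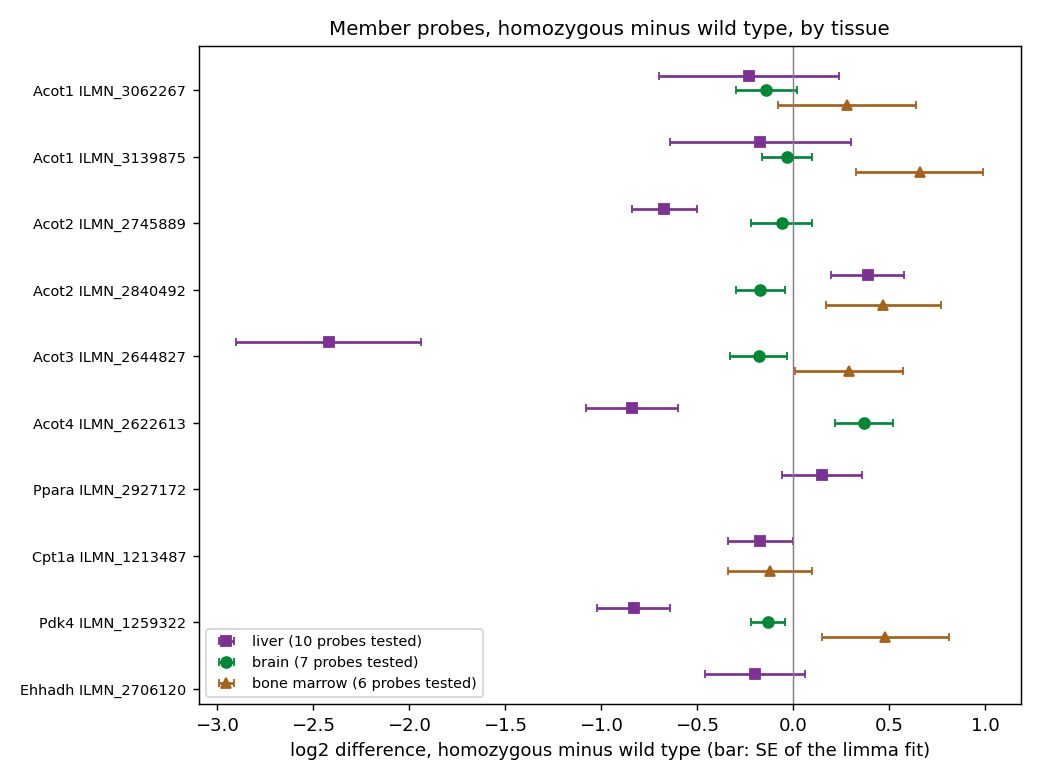
Log2 difference, homozygous minus wild type, with the SE of the limma fit as bars, for each member probe tested in liver (squares), brain (circles) and bone marrow (triangles, by label). Acot3 at -2.42 in liver stands apart from -0.18 in brain and 0.29 in bone marrow, and Ppara and Ehhadh were tested in liver alone.

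The wild-type tissues, on a scale normalised over all 27 arrays, show where the genes are used. Of the 10 member probes 9 were higher in liver than in brain, where 22% of all probes were called higher in liver, and 8 were higher in liver than in bone marrow (22.2%), by limma over 25195 probes. Both counts include Ehhadh and Ppara, which passed the detection filter through liver alone. Their direction was fixed by the filter, so the counts are no test against those shares. Between bone marrow and brain 1 was higher and 2 were lower in bone marrow (54.5% of probes were called either way). Bone marrow shared no BeadChip with liver or brain, so BeadChip and tissue cannot be told apart there, and wild-type liver and wild-type brain were also on different ones. The homozygous livers did share a BeadChip with the wild-type brains, and on it Acot4 averaged 8 in homozygous liver and 4.52 in wild-type brain, Ehhadh 7.98 and 4.35, and Acot3 7.84 and 5.12.

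Acot3 read 11.03, 9.57 and 9.38 in wild-type liver, 4.64, 4.85 and 6.03 in bone marrow and 5.17, 4.94 and 5.26 in brain. Liver was 29.3-fold above brain (4.87 ± 0.48, limma adjusted p = 1.2e-08) and 28.3-fold above bone marrow (adjusted p = 1.77e-08), where Acot3 was above background on 1 of the 3 arrays, while bone marrow and brain did not differ beyond their spread (0.05 ± 0.48, adjusted p = 0.944). Acot4 was above background in liver only, averaging 8.76 ± 0.46 there (SD, n = 3), at least 11.7-fold above bone marrow (limma adjusted p = 7.01e-09) and at least 16.9-fold above brain (adjusted p = 4.51e-09).

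Ehhadh and Ppara were likewise above background in liver only. Ehhadh was at least 7.73-fold above bone marrow and at least 11.2-fold above brain, and Ppara at least 2.07-fold and at least 2.99-fold. Neither was above background on any brain or bone marrow array of any genotype. Both passed the detection filter through liver alone, which fixed the direction, so no p-value is given for them.

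The brighter probe of Acot1 gave 3 separate tissue levels. It averaged 10.87 ± 0.80 in liver, 8.65 ± 0.16 in brain and 6.11 ± 0.98 in bone marrow (SD, n = 3 each). Liver was 4.65-fold above brain (limma adjusted p = 0.000738), and bone marrow 5.83-fold below brain (adjusted p = 0.000162). The dimmer probe gave 4.58-fold for liver over brain (adjusted p = 0.00239), and its bone marrow and brain levels did not differ beyond their spread (adjusted p = 0.182).

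Pdk4 averaged 7.82 ± 0.11 in liver, 5.97 ± 0.08 in brain and 5.11 ± 0.72 in bone marrow, with liver 3.62-fold above brain (limma adjusted p = 0.00131). Its bone marrow arrays, at 5.11, 4.40 and 5.84, all lay below the brain arrays, at 5.91, 5.94 and 6.06, but the difference of -0.85 ± 0.45 did not pass (limma adjusted p = 0.113), and 1 of the 3 bone marrow arrays was above background. Cpt1a, at 5.32 ± 0.21 in liver and 5.30 ± 0.16 in bone marrow, was at least 1.55-fold above brain in liver (limma adjusted p = 0.0143) and at least 1.53-fold above brain in bone marrow (adjusted p = 0.0149), and above background on no wild-type brain array. The call of Cpt1a in liver over brain was lost without liver replicate 2 (0.81, adjusted p = 0.0624).

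Acot2 ILMN_2745889 averaged 6.14 ± 0.26 in liver, 5.54 ± 0.20 in brain and 4.93 ± 0.25 in bone marrow, with differences of 0.60 ± 0.23 for liver minus brain (limma adjusted p = 0.0377) and -0.61 ± 0.23 for bone marrow minus brain (adjusted p = 0.0305). The call over brain was lost without liver replicates 1 or 3 (0.49 and 0.58, adjusted p = 0.148 and 0.0926) and without brain replicates 2 or 3 (0.64 and 0.48, adjusted p = 0.051 and 0.141). That of bone marrow against brain was lost without brain replicates 1 or 2 (-0.53 and -0.55, adjusted p = 0.0972 and 0.0876) and without bone marrow replicates 1 or 3 (-0.61 and -0.51, adjusted p = 0.0679 and 0.122). ILMN_2840492 lay between 4.61 and 5.71 in all 3 tissues, with no called difference.

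**Figure D5:**
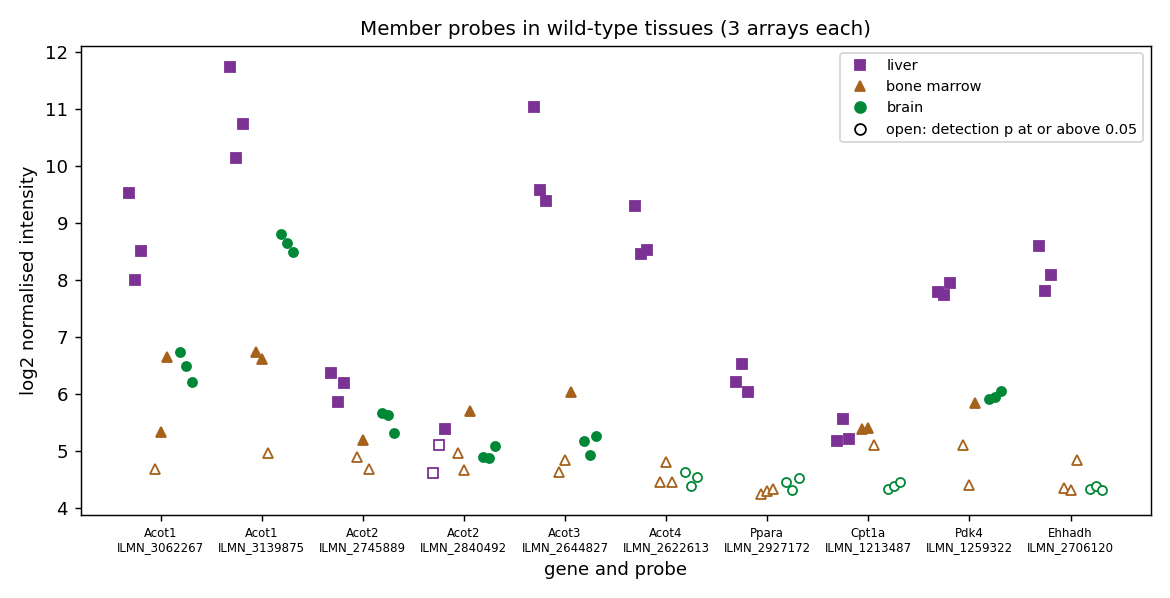
Log2 normalised intensity, over all 27 arrays, of the 10 member probes in wild-type liver (squares), bone marrow (triangles) and brain (circles), 3 arrays each, with open symbols where detection p was 0.05 or more. All but Cpt1a and Acot2 ILMN_2840492 have every liver array above every array of the other tissues, and for Acot4, Ppara and Ehhadh every symbol outside liver is open.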

How the data were processed

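The deposited scanner table holds, per probe and array, a mean bead intensity, a bead standard error, a bead count and a detection p-value, per the file headers. BeadStudio and limma are named in the submitters' processing notes. The authors' deposited processed intensity table of the same arrays, with medians from 85.42 to 85.62 per array, was used as an alternative. The settings below are on a log2 scale of the deposited intensities.

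Intensities were corrected against inferred negative controls, offset by 16, quantile normalised (neqc, limma 3.58.1, R 4.3.3) within the 9 arrays of a tissue, or over 27 arrays for tissue comparisons, and kept where detection p was below 0.05 on at least 3 arrays. All probes were fitted (lmFit, eBayes) over the 3 genotypes, p-values were adjusted by Benjamini-Hochberg over all probes, and calls were made at 0.05. Pathway lists took 1 probe per gene, the one with the highest mean. Probes were named through the platform annotation (34885 with 1 symbol, 18 with several, 10378 with none), and list genes without a probe there were not analysed here. The fit was tested on simulated data. The members, gene lists and tests were chosen with earlier results of these data known. Named genes were all member probes, Mysm1, for each pathway list up to 4 genes past the threshold or else the 2 of smallest p, and the 3 genes most like each member; Cyp4a14, Fgf21 and the marker genes named by value were added afterwards. The replicate numbers do not pair the arrays: same-number deviations correlated between -0.31 and 0.23 in liver. The number of arrays limits the precision.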

Additional observations from a re-analysis of the deposited data

Results flagged for a closer look

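In 5 cases every array of one tissue moved one way against the wild-type mean and every array of another tissue the other way; the difference was not tested in any of them. Acot4 had a homozygous minus wild-type difference of -0.84 in liver and 0.37 in brain, a gap of -1.21. Pdk4 had -0.83 in liver and 0.48 in bone marrow, a gap of -1.31, and -0.13 in brain, a gap of -0.61 to bone marrow. Acot1 (ILMN_3139875) had -0.17 in liver and 0.66 in bone marrow, a gap of -0.83. Neither sign held under every setting for this probe. The liver difference was 0.08 with array weights and 0.31 without wild-type replicate 1, and the bone marrow difference was -0.06 with median scaling. Acot3 had a heterozygous minus wild-type difference of -0.27 in brain and 0.16 in bone marrow, a gap of -0.43. The bone marrow values are by label, as homozygous replicates 1 and 3 did not show the low Mysm1 of their label and the heterozygous arrays were not below wild type. BeadChip and genotype cannot be told apart in the homozygous differences of any tissue, nor in the heterozygous difference in brain.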

How the results depend on the processing

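Precision was limited by 3 arrays a group and, in bone marrow, by dim arrays. The homozygous minus wild-type directions in liver held under each setting run for Acot3, Acot4, Pdk4 and the detected Acot2 probes, with smaller sizes for Acot2 ILMN_2745889 (-0.26 and -0.30) and Pdk4 (-0.57 and -0.54) without background correction and with the authors' processed values; the causes of the changes below were not tested. Probes called in liver, homozygous against wild type, numbered 207, but 440 without background correction, 351 with the authors' processed values, 114 without the detection filter, 416 with array weights, 73 with a replicate block, 135 with only the compared groups, and 52 to 134 with 1 array left out. Pathway genes called there numbered 1, but 3 without background correction (also Ep300 and Creb3l3), 2 with detection on all 9 arrays or array weights (also Acot6) or only the compared groups (also Them4, adjusted p = 0.0402), 0 with the replicate block (Angptl4 adjusted p = 0.0513), and 0 to 1 with 1 array left out. Against heterozygous livers the 83 probes became 184 without background correction, 150 with the authors' values, 194 with median scaling (162 higher and 32 lower, where the main split was 47 and 36), 381 with weights, 47 with the replicate block and 43 to 66 with 1 array left out. Heterozygous against wild type gave 0, but 1 normalised over 27 arrays and 0 to 2 with 1 array left out. In brain, homozygous against wild type gave 2 probes, and 1 with the authors' values, detection on all 9 arrays, 1 probe per gene, the replicate block, only the compared groups or 1 array left out; against heterozygous it gave 2, and 1 without background correction, with the authors' values, detection on all 9 arrays, 1 probe per gene or 1 array left out, and 0 with the replicate block or only the compared groups. In bone marrow, homozygous against wild type gave 171, but 710 with median scaling (26 higher and 684 lower, where the main split was 39 and 132), 78 detected on all arrays, 9380 with weights, 53 with the replicate block, 36 with only the compared groups, and 21 to 4554 with 1 array left out (4554 without homozygous replicate 2). Against heterozygous it gave 108, but 56 normalised over 27 arrays, 0 with median scaling, 3436 with weights, 55 with the replicate block, 28 with only the compared groups, and 31 to 1980 with 1 array left out. Heterozygous against wild type gave 0, but 1863 with weights and 212 with only the compared groups. Member probes called in bone marrow numbered 0, but 4 (homozygous against wild type) and 1 (against heterozygous) with weights. With the replicate numbers as a block no other member call changed.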
